A study of Caenorhabditis elegans with 2 samples.

Results

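The srh genes of Caenorhabditis elegans encode chemoreceptors, and binding of the transcription factor HLH-4 at their starts was described in a genome-wide ChIP-seq experiment. Members were the protein-coding genes of the Ensembl release 115 annotation (WBcel235) whose symbol is srh- followed by a number. The annotation held 220 such genes. Of these, 3 were not used here, which left 217 members of 19973 protein-coding genes. They carry 215 distinct symbols, since srh-57 and srh-228 each name a pair of gene identifiers. Chromosome V holds 178 members (82.0%), and chromosomes II, IV, I, X and III hold 27, 6, 3, 2 and 1.

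The libraries were 2 biological replicates of strain OP523, whose genotype is unc-119(tm4063) III; wgIs523. These are whole hermaphrodite L1 larvae, starved after bleaching to synchronize them and collected 6 hours after synchronization. A stable transgene in them makes HLH-4 with GFP and FLAG at its C-terminus. Anti-GFP antibody was used for the immunoprecipitation after sonication, so the signal is that of the tagged protein made from the transgene. Both replicates form 1 group and no untagged or mutant strain was analysed here, so the values below are a description, set beside the same values over all genes or all peaks and given without tests. Read depth is unknown.

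srh genes belong to the Str superfamily of nematode chemoreceptors, together with the srd, sri, srj and str families. They encode G protein-coupled receptors that cross the membrane several times, many are expressed in chemosensory neurons, and they lie in arrays of related genes. HLH-4, which belongs to the Achaete-Scute branch of the basic helix-loop-helix (bHLH) proteins, is known for its role in the identity of the ADL chemosensory neurons. Proteins of this family bind E-boxes as dimers with an E protein, which is HLH-2 in C. elegans, and an E-box upstream of chemoreceptor genes is known to matter for expression in ADL. Each library came from whole animals, so strong binding in a few cells and weak binding in many cannot be told apart.

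A member was called bound when the summit of a peak from the authors' optimal set fell between 2000 bp upstream and 500 bp downstream of its start and no other protein-coding start was nearer. The optimal set holds the 545 peaks that passed the authors' test of reproducibility between replicates. "Unbound" below means only that no such peak was assigned. An E-box here is CAGCTG or CACCTG on either strand, and CACCTG reads as CAGGTG on the other one. Of the 217 members, 17 (7.83%) were bound, by 18 peaks, since srh-140 had a pair. Over all protein-coding genes, 312 of 19973 (1.56%) were bound.

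Sequences under member peaks of differing strength show what these sites look like. All sequences are from the RefSeq genome sequence of WBcel235 (ce11), are written 5′ to 3′ on the strand of the gene, overlap no annotated coding exon and have their E-boxes in capitals. The first 4 are the E-boxes at the summits of srh-147, srh-148, srh-149 and srh-78 with 20 bp on either side, shown because all 4 continue past CACCTG with a pyrimidine and TCT:
srh-147 (V:15850604-15850649, - strand): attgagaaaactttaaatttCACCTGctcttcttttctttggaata
srh-148 (V:15858427-15858472, - strand): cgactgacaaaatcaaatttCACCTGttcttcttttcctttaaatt
srh-149 (V:15841233-15841278, - strand): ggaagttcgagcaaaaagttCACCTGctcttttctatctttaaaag
srh-78 (V:215862-215907, + strand): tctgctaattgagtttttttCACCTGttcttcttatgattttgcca
srh-147, srh-148 and srh-149 are neighbours and close relatives, so their sites are not independent of each other. srh-78 lies elsewhere on the same chromosome.

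The next 2 show the range among the other bound members. The 61 bp at the summit of srh-136 hold a pair of E-boxes. At srh-125 the E-box within 50 bp of the pooled summit is of the other class, CAGCTG. Its peak also covers a CAGGTG box, 148.5 bp upstream of the start, which is not shown. The sequences are:
srh-136 (V:16497674-16497734, - strand): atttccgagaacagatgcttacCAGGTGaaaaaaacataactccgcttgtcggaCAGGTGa
srh-125 (V:7477031-7477076, - strand): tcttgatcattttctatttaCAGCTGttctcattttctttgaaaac
At srh-140, the member with the highest signal, the 61 bp at the summit of the stronger peak hold no E-box, while the weaker peak has one within 50 bp of its summit. The 61 bp at the stronger summit are followed by that E-box with its flanks:
srh-140 (V:15721601-15721661, + strand): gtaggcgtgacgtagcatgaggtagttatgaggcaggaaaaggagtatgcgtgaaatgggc
srh-140 (V:15721792-15721837, + strand): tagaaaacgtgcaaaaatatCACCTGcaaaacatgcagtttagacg

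The strongest member peak was at srh-140 (WBGene00005357), on chromosome V from 15721466 to 15721795. It ranked 29 of 545 in the pooled list with a signal value of 142.9. The signal value is the authors' own measure of peak strength, has no stated normalization, and was compared only within 1 list. Its region ranked 13 in replicate 1 (78.0) and 46 in replicate 2 (72.1). The summit lay 557 bp upstream of the gene start. In replicate 1 the summit was at 592 bp upstream and had no E-box within 50 bp, and in replicate 2 it was at 394 bp upstream and had one. The 198 bp between them is the widest gap among member peaks. The second srh-140 peak, at 15721715 to 15721873, had a signal of 53.6 (rank 380) with its summit 340 bp upstream and overlapped the same replicate regions, so its replicate ranks are not separate measurements.

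The next 4 members were close to srh-140 in strength. srh-136 (WBGene00005353; V, 16497624 to 16497775) had a signal of 135.3 (rank 38), and its summit was 108 bp upstream. Its region ranked 31 in replicate 1 (64.0) and 42 in replicate 2 (73.8). Both of its E-boxes, centred 81.5 and 113.5 bp upstream, lay inside the peak. srh-147 (WBGene00005363; V, 15850513 to 15850675) had a signal of 132.4 (rank 42), with replicate ranks of 55 (56.4) and 29 (83.4). Its summit lay 286 bp upstream and its E-box 300.5 bp upstream, at nearly the same place in both replicates, whose summits were 7 bp apart. srh-78 (WBGene00005299; V, 215806 to 215957) had a signal of 128.8 (rank 46), with replicate ranks of 86 (48.8) and 37 (75.0). Its site was far from the start, at 1250 bp upstream, in contrast with most members. srh-159 (WBGene00005375) had a signal of 119.8 (rank 54), and its replicates ranked it 54 (56.5) and 57 (68.0). Its summit lay 57 bp upstream, 3.5 bp from the centre of its E-box. All 5 of these members were among the 100 strongest regions of both replicates.

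A middle group of 8 members had signals between 59.9 and 78.7, and each had an E-box at its summit. Those with the CACCTG class were srh-204 (WBGene00005415), at 78.7 and rank 179 with its summit 55 bp upstream, srh-25 (WBGene00005249), at 72.7 and rank 207 with its summit 146 bp upstream, and srh-149 (WBGene00005365), at 66.0 and rank 262 with its summit 77 bp upstream. srh-40 (WBGene00005263), the only member on chromosome III, had a signal of 61.0 (rank 305). Its pooled and replicate 1 summits lay 52 bp downstream of the start, in its own coding exon, while its replicate 2 summit lay 53 bp upstream. srh-182 (WBGene00005397) had a signal of 59.9 (rank 316), 96 bp upstream. Those with CAGCTG were srh-125 (WBGene00005342), at 74.2 and rank 194 with its summit 199 bp upstream, srh-229 (WBGene00005437), at 69.0 and rank 239, and srh-174 (WBGene00005390), at 61.8 and rank 297 with its summit 50 bp upstream. The peak of srh-125 also covered a CAGGTG box 148.5 bp upstream, just outside the 50 bp searched. Its replicate 1 summit, 160 bp upstream, was nearer to that box than to the CAGCTG. The srh-229 summit was the farthest of all, 1787 bp upstream, and was nearer to the starts of a pseudogene and of a tRNA gene than to srh-229. The replicate ranks of these members ran from 144 to 633, and only srh-174 in replicate 1 was outside the 545 strongest.

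The weakest bound members were srh-97, srh-148, srh-266 and srh-60. srh-97 (WBGene00005316) had a signal of 51.6 (rank 402; 436 and 464 in the replicates), with its summit 145 bp upstream and E-boxes 91.5 and 205.5 bp upstream, just outside the 50 bp searched. srh-148 (WBGene00005364) had a signal of 49.1 (rank 430; 330 and 546). srh-266 (WBGene00005472) had a signal of 47.1 (rank 469), and srh-60 (WBGene00005282), the only bound member on chromosome II, had 43.3 (rank 538). These last members differed most between replicates. srh-266 ranked 331 in replicate 1 (26.1) and 2741 in replicate 2 (16.8), and srh-60 ranked 360 (25.2) and 3057 (16.4). Neither had an E-box within 50 bp of its pooled summit, although the replicate 2 summit of srh-60, 317 bp upstream, did. The pooled summit of srh-60 lay in a coding exon of the neighbouring gene srh-59. With replicate 1 left out, neither was among the 545 strongest regions, and srh-148 just missed them. With replicate 2 left out, srh-174 was the bound member that missed them.

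**Figure D1:**
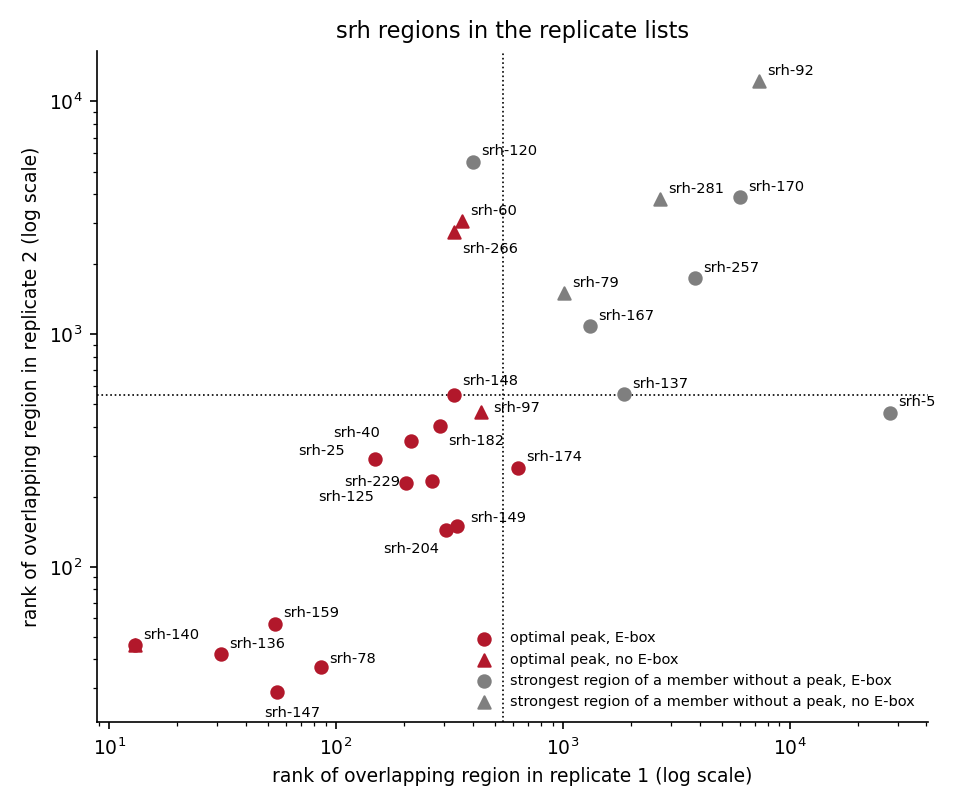
Rank of each member's region in replicate 1 (x) and replicate 2 (y), both on log scales, for the 18 peaks of bound members (red) and the strongest regions of the 10 unbound members with the highest signals (grey, without srh-42, which has no region in replicate 1). Circles have an E-box within 50 bp of the summit, triangles have none, and dotted lines mark rank 545. Of the red points, 14 lie within rank 545 in both replicates, and srh-266 and srh-60 lie high on the replicate 2 axis. The points of both srh-140 peaks coincide, since they share the same replicate regions.

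All 18 member peaks overlapped a region of each replicate list. Of them, 14 (77.8%) were within the 545 strongest of both, against 336 of all 545 optimal peaks (61.7%). Replicate 1 placed 17 there and replicate 2 placed 15. Both srh-140 peaks are in each of these counts with the same replicate regions, so they do not count separately. The replicate summits of member peaks lay a median of 32 bp apart. The median signal of member peaks was 67.5, against 65.97 over the 323 optimal peaks assigned to any gene and a range of 43.1 to 379.5 over the optimal set. The strength of member peaks was thus near that of peaks at genes in general.

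Member peaks lay close to the gene start. Their summits had a median distance of 144.5 bp upstream, against 253 bp upstream for all 323 assigned peaks. From 50 to 200 bp upstream lay 11 of the 18 (61.1%), against 88 of 323 (27.2%). This span was not planned, and the member summits of srh-174 (50 bp) and srh-125 (199 bp) lie at its edges. No conclusion is drawn from these shares. The annotated gene start is the first coding base in 168 of 217 members (77.4%) and in 14 of the 17 bound ones, so distances are mostly from the start codon and not from a mapped transcription start. That share was not counted over other genes. Whether a different kind of annotated start adds to the contrast with all assigned peaks was not tested. Summits of 16 of the 18 peaks were intergenic. For 6 peaks another protein-coding gene also had its start in reach but farther away, namely F36D3.1 at srh-136, C54D10.13 at srh-25, srsx-1 at srh-174, ctsa-4.2 at srh-40, srh-181 at srh-182 and F31F4.11 at srh-266. The last of these is the closest call, with the summit 144 bp upstream of srh-266 and 216 bp upstream of F31F4.11.

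Of the 18 member peaks, 14 (77.8%) had an E-box no more than 50 bp from the summit, against 149 of 323 peaks assigned to any gene (46.1%) and 271 of all 545 optimal peaks (49.7%). In the lower-ranked regions, those from rank 15001 of the pooled list on, the share was 689 of 14976 (4.60%). At members such lower-ranked regions had one in 9 of 77 (11.7%). Within 50 bp of the pooled summit, 11 of the 14 member peaks held the CACCTG class and 3 held CAGCTG. The nearest E-box centre was a median of 13.5 bp from the summit, with a range of 2.5 to 34.5 bp. The 4 peaks without one were the stronger peak of srh-140 and those of srh-97, srh-266 and srh-60. Each of these 4 had an E-box farther off, but so do most genes, since 67.6% of all genes have one in the whole window. For srh-266 boxes lay 48.5 and 73.5 bp upstream of the start, between the summit and the gene. For srh-60 the only box within 300 bp lay 55.5 bp upstream, and another lay within 50 bp of the replicate 2 summit, 317 bp upstream. The longer string seen above, CACCTG followed by any base and TCT, was looked for after the sequences had been seen. It was present in 4 of 18 member peaks (22.2%), 14 of all 545 optimal peaks (2.57%) and 13 of the 14976 lower-ranked regions (0.0868%). The 4 member peaks are those from which the string was taken, so their share was fixed in advance. They are also among the 14, and no conclusion is drawn from the contrast.

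Regions of any strength were common. The authors labelled the pooled list as peaks and background, the input to their test of reproducibility. A region in it is therefore not by itself evidence of binding. The list holds 30000 regions, as does each replicate list. At least 1 region of the pooled list was assigned to 132 of 217 members (60.8%), against 9528 of 19973 genes (47.7%). Of genes with a region, 12.9% of members and 3.27% of all genes were bound. The other 85 members had none. The 115 members with a region but no peak had a median signal of 16.7 at their strongest region, at a median rank of 12762. This was about the level at unbound genes in general, where the medians were 16.7 and rank 12938.

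**Figure D2:**
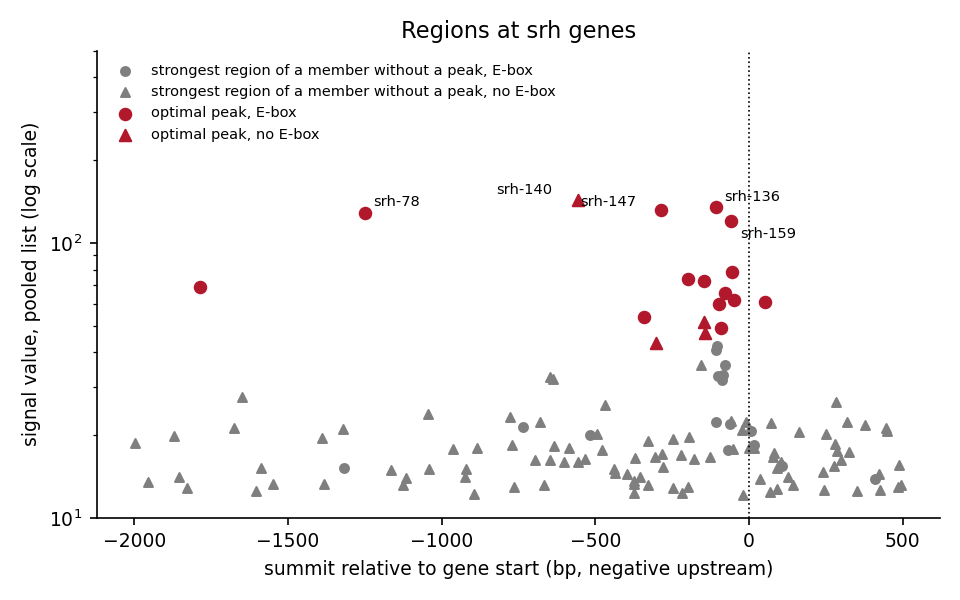
Signal value in the pooled list (y, log scale) against the position of the summit relative to the gene start (x, bp, negative upstream) for the 18 peaks of bound members (red) and the strongest region of each of the 115 unbound members with a region (grey). Circles have an E-box within 50 bp of the summit. Most red points and the strongest grey circles stand near the start, while weak grey triangles are spread over the whole window.

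Of the 10 unbound members with the highest signals, 7 had a summit within 200 bp upstream of the start and 3 had one farther off. The weakest bound member was srh-60 (43.3), and the strongest unbound member was srh-137, at 42.0 and rank 565. srh-137 is the closest relative of srh-136 in protein sequence (47.7% identity). Its region had an E-box at the summit 103 bp upstream and ranked 1853 in replicate 1 and 551 in replicate 2. srh-120 (40.9, rank 591) had a pair of E-boxes near its summit, 108 bp upstream, and differed widely between replicates, ranking 401 and 5520. srh-167 (36, rank 764) had an E-box and replicate ranks of 1313 and 1081. srh-5 (33.2, rank 917), with an E-box at a summit 86 bp upstream, was the most discordant of those with a region in both replicates, with rank 27668 in replicate 1 (7.1) and 460 in replicate 2 (29.2). srh-257 (32.9, rank 936) and srh-170 (31.8, rank 1024) also had an E-box near summits 101 and 88 bp upstream. Both of these are in the same cluster of unbound genes. The other 4 of the 10 strongest unbound members had no E-box at the summit. These were srh-79 (36, rank 766), with its summit 157 bp upstream, srh-281 (32.5, rank 964), 647 bp upstream, srh-42 (31.9, rank 1012), 636 bp upstream with no region in replicate 1, and srh-92 (27.5, rank 1704), 1648 bp upstream. Of the 9 members whose strongest region ranked from 546 to 1090, 6 had an E-box at the summit. Of the 106 whose strongest region ranked beyond 1090, 10 (9.43%) had one.

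E-boxes were far more common upstream of members than binding was. Within 300 bp upstream of the start, 114 of 217 members (52.5%) had at least 1 E-box, against 2597 of 19973 protein-coding genes (13.0%). These members carried 140 boxes, 91 of the CACCTG class and 49 of CAGCTG. Of the 140, 106 (75.7%) were centred 25 to 125 bp upstream, against 1168 of 2917 boxes (40.0%) over all genes. This span was not planned and is where the members' own boxes were most frequent, so the contrast of these shares favours members. The median box centre was 79 bp upstream in members and 133.5 bp upstream over all genes. These positions too are from annotated starts, whose kind was not compared between members and other genes. The fullest bin, 50 to 75 bp upstream, held 45 boxes, 7 of bound and 38 of unbound members, or 20.7 per 100 members against 1.96 per 100 genes. Related members share upstream sequence, so these boxes are not independent of each other.

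**Figure D3:**
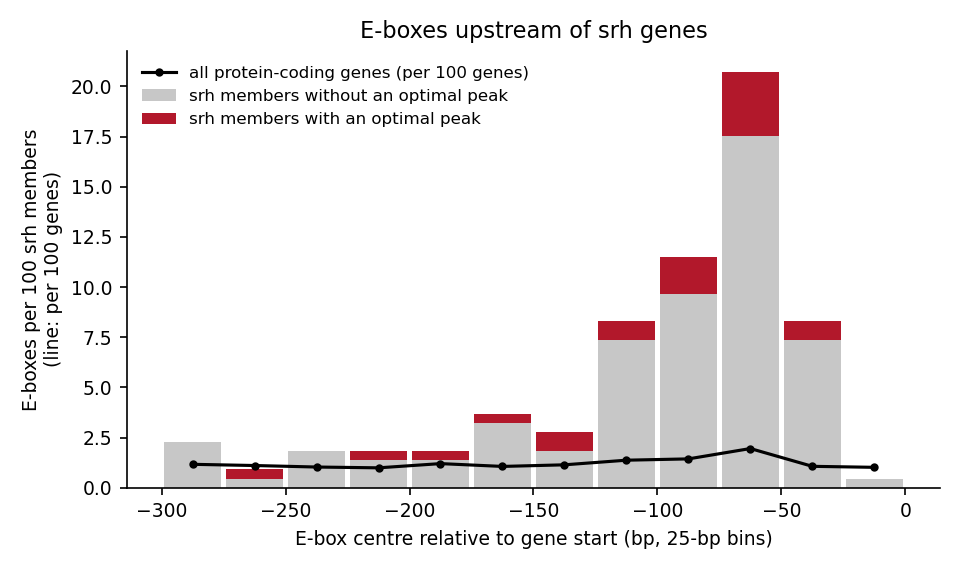
Number of E-boxes per 100 members in bins of 25 bp over the 300 bp upstream of the gene start, stacked for unbound (grey) and bound (red) members, with the number per 100 protein-coding genes as a black line. The bars peak at 20.7 per 100 members in the bin from 50 to 75 bp upstream, where the line stands at 1.96 per 100 genes.

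Bound members had such a box more often than unbound members, but most members with a box were unbound. It was present in 14 of 17 bound members (82.4%) and in 100 of 200 unbound members (50%). The 3 bound members without it were srh-78, srh-140 and srh-147, whose E-boxes at the summit lie farther than 300 bp from the start. At srh-229 and srh-60 the box within 300 bp lay outside the peak. The share of bound members thus counts boxes that are present, not boxes under a peak. Read the other way, 14 of 114 members with a box (12.3%) and 3 of 103 without (2.91%) were bound. Over all genes the shares were 90 of 2597 (3.47%) and 222 of 17376 (1.28%). Of the 82 members with a CACCTG box, 11 (13.4%) were bound, and of the 32 with CAGCTG alone, 3 (9.38%) were. In the whole window of 2000 bp upstream to 500 bp downstream, an E-box was present at 17 of 17 bound members, at 166 of 200 unbound members (83.0%) and at 67.6% of all genes.

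The bases beside the box were counted as well. A T stood before CACCTG, read in that orientation, in 11 of 14 boxes of bound members (78.6%) and in 47 of 77 boxes of unbound members (61.0%). A C or T followed it in 13 of 14 (92.9%) and in 68 of 77 (88.3%). The longer string ending in TCT was found within 300 bp upstream of 3 bound members (srh-40, srh-148 and srh-149) and 3 unbound members. Since the string was taken from peaks that include those of srh-148 and srh-149, these counts are no separate support for it. The unbound ones were srh-146, whose strongest region ranked 12744, srh-308, at rank 4296, and srh-119, which had no region. Over all genes it was found in 55 (0.275%). Of the 119 boxes within 300 bp upstream of unbound members, 92 were covered by no region at all, and 76 of the 100 unbound members with a box had no region over any of theirs. Coverage of the boxes of other genes was not counted, so these counts cannot be read as particular to members.

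Bound members were spread over many gene clusters and did not fill any. Consecutive member starts at most 20000 bp apart were taken as a cluster, which gave 46 clusters with 153 members, the largest of 13, and 64 single genes. In clusters 13 members were bound (8.50%), and among single genes 4 were (6.25%), namely srh-40, srh-204, srh-25 and srh-140. The 13 lay in 10 clusters, and only 2 of these held more than 1 bound member. The 10 clusters held 20 unbound neighbours. Of these, 13 had an E-box within 300 bp upstream, as did 11 of the 13 bound, while 10 had a region of any strength, the best at rank 766.

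**Figure D4:**
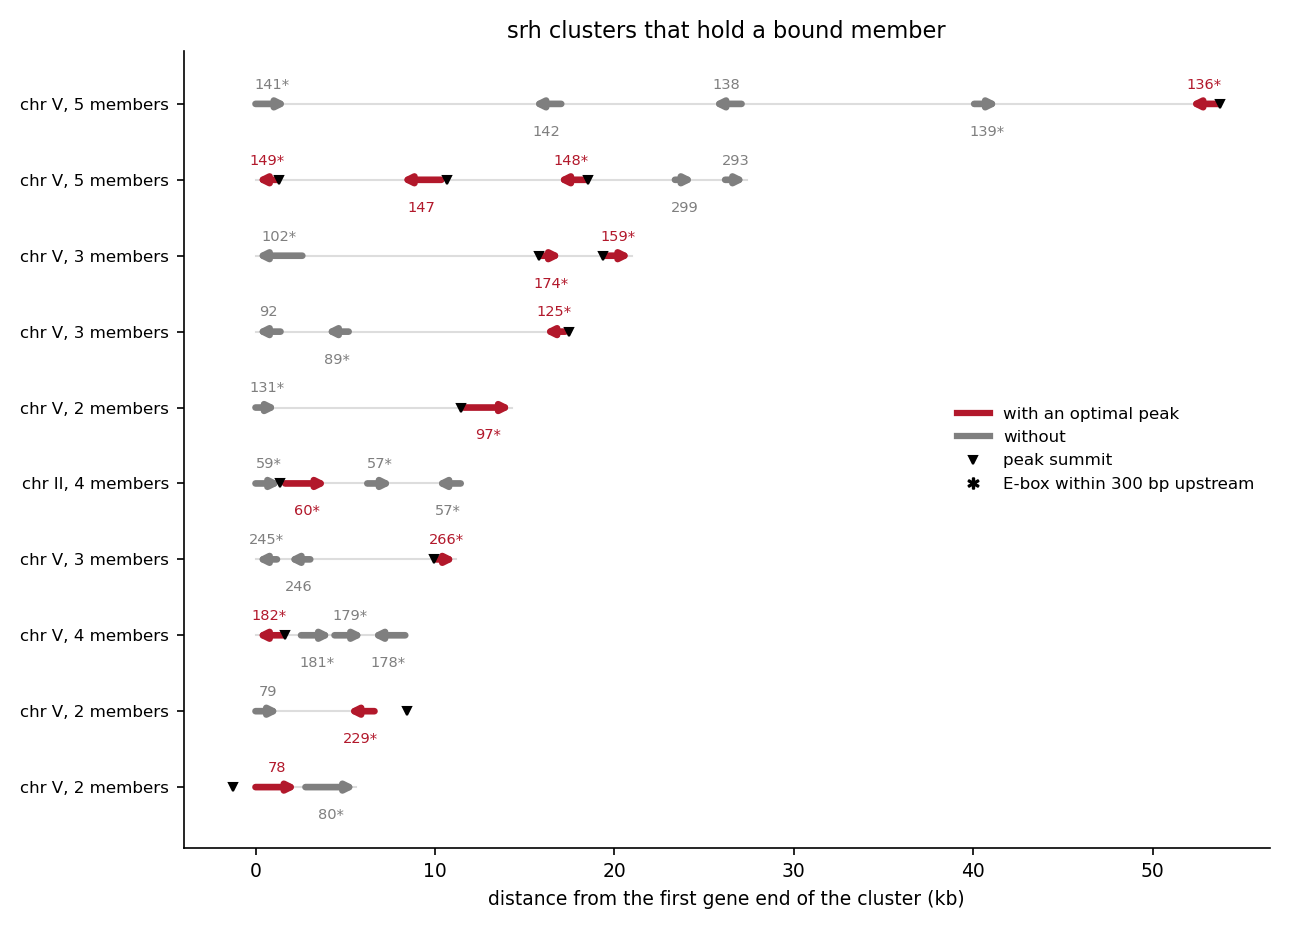
The 10 clusters that hold a bound member, drawn to scale from the first gene end (x, kb). Arrows give each gene's extent and strand, in red for bound and grey for unbound members, numbers are the srh numbers, asterisks mark an E-box within 300 bp upstream and triangles mark summits of optimal peaks. Unbound neighbours with an asterisk stand in 8 of the 10 rows.

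The cluster of srh-149, srh-147 and srh-148 had the most bound members. All 3 lie on the same strand, and their proteins are 90.7% (srh-147 and srh-148), 66.1% (srh-147 and srh-149) and 63.3% (srh-148 and srh-149) identical. Their signals were 132.4 at srh-147, 66.0 at srh-149 and 49.1 at srh-148. The sites of srh-147 and srh-148, the closest pair in protein, were not at the same place, with E-boxes 300.5 and 57.5 bp upstream. The E-box of srh-149 was 60.5 bp upstream, near that of srh-148. Of the 300 bp upstream of srh-147, 48.1% of the 36-base words occur elsewhere in the genome, the highest share among bound members. The last members of the cluster, srh-299 and srh-293, are on the opposite strand, at 25.8% to 28.1% identity to the bound ones. They have no E-box within 300 bp, and their best region was that of srh-293 at rank 21821.

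In the cluster of srh-174 and srh-159, both bound genes had an E-box near 60 bp upstream, at 58.5 and 60.5 bp, although their proteins are only 40.5% identical. The class differed, with CAGCTG at srh-174 and CACCTG at srh-159. Their signals were 61.8 and 119.8. The unbound srh-102 had a box at nearly the same distance, 63.5 bp upstream, and its only region, with a summit 494 bp upstream, ranked 6436.

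In the clusters of srh-182 and srh-60, relatives of the bound gene had a box and were unbound. This was the common state, since 100 of the 114 members with a box were unbound. srh-182 and srh-181 are divergent neighbours whose proteins are 80.6% identical, and the peak lay 96 bp upstream of srh-182 and 912 bp upstream of srh-181. srh-182 had boxes 79.5 bp (CAGGTG) and 165.5 bp (CACCTG) upstream of its start, and srh-181 had 1 within 300 bp, 81.5 bp upstream (CACCTG). No region was assigned to srh-181. srh-179 and srh-178, at 49.8% and 52.9% identity to srh-182, had boxes 75.5 and 67.5 bp upstream, and their strongest regions ranked 15930 and 18265. srh-60 is 86.3% identical in protein to srh-59 and 78.1% identical to the pair of srh-57 genes. All 4 have a CAGCTG within 300 bp upstream, and none but srh-60 had a region. The 300 bp upstream of both srh-57 genes consist wholly of 36-base words that occur more than once in the genome (100%). The read length is not known, and the part of these repeats in the missing regions was not tested. The box nearest the start of srh-182, srh-181, srh-60, 1 of the srh-57 genes and srh-59 follows, shown because these bound and unbound genes are close relatives:
srh-182 (V:18473572-18473617, - strand): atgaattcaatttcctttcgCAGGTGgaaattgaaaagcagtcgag
srh-181 (V:18474419-18474464, + strand): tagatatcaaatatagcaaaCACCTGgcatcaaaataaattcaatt
srh-60 (II:3583624-3583669, + strand): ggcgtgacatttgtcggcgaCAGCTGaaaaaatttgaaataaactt
srh-57 (II:3588110-3588155, + strand): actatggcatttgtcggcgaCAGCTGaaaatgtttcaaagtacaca
srh-59 (II:3581829-3581874, + strand): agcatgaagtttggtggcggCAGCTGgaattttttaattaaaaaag
The srh-60 sequence lies 55.5 bp upstream of the start, away from the peak, whose summit was 302 bp upstream.

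In the other clusters the unbound neighbours had weaker regions or no assigned region. Weaker regions follow in large part from how bound was defined, and a missing region does not mean that signal was absent. srh-136 shares its cluster with srh-141, srh-142, srh-138 and srh-139, at 37.4% to 46.4% protein identity. Of these, srh-142, known as a marker of the ADF chemosensory neurons, had no region and no E-box within 300 bp. srh-141 and srh-139 had boxes 114.5 and 115.5 bp upstream, near the distance of the outer box of srh-136 (113.5 bp), but their regions ranked 10450 and 24717. srh-80, next to srh-78, had a box 59.5 bp upstream, and its strongest region, 1675 bp upstream, ranked 5125. srh-229 was paired with srh-79, the strongest unbound neighbour (rank 766), which has no E-box in its window. srh-89, beside srh-125, and srh-131, beside srh-97, had boxes 59.5 and 55.5 bp upstream and no region. srh-245, beside srh-266, had one 22.5 bp upstream and a region of rank 21173.

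Clusters with no bound member varied as well. The largest, 13 genes from srh-290 to srh-286 on chromosome V, had 5 members with a region, none better than srh-301 at rank 3502, and only srh-291 and srh-286 had an E-box within 300 bp. A cluster of 8 genes on the same chromosome had a box in 6, and its srh-257 and srh-170 reached ranks 936 and 1024. Its srh-52, with a box 36.5 bp upstream, ranked 23124.

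Protein likeness was compared as well. The closest relative among members was itself bound for 3 of 17 bound members, all within the cluster of srh-147 and each other's relatives, and for 10 of 200 unbound members. The median identity to the closest relative was 59.8% for bound and 61.95% for unbound members. srh-25 was the most isolated of the bound genes, at 29.0% identity to its closest relative, srh-288. Identity was taken over the shorter protein, which favours short ones, and srh-288 has 221 amino acids against a median of 334. It was also the closest relative of srh-125 and srh-229.

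Among the 5 families of the Str superfamily, srh had the highest share of bound genes, with sri near it. The bound counts were 17 of 217 srh (7.83%), 4 of 61 sri (6.56%), 3 of 67 srd (4.48%), 4 of 193 str (2.07%) and 0 of 39 srj genes. An E-box within 300 bp upstream was present in 52.5% of srh and in 67.2% of sri genes, but in 13.0% of str, 10.3% of srj and 8.96% of srd genes, at or below the 13.0% of all genes. All 4 bound sri genes had such a box, as did 3 of 4 bound str genes and none of the 3 bound srd genes. sri-7, sri-65, sri-61 and sri-6 had signals of 112.7, 112.1, 90.1 and 77.2, with summits 34 to 103 bp upstream. The family counts are small, and the differences between families were not tested.

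**Figure D5:**
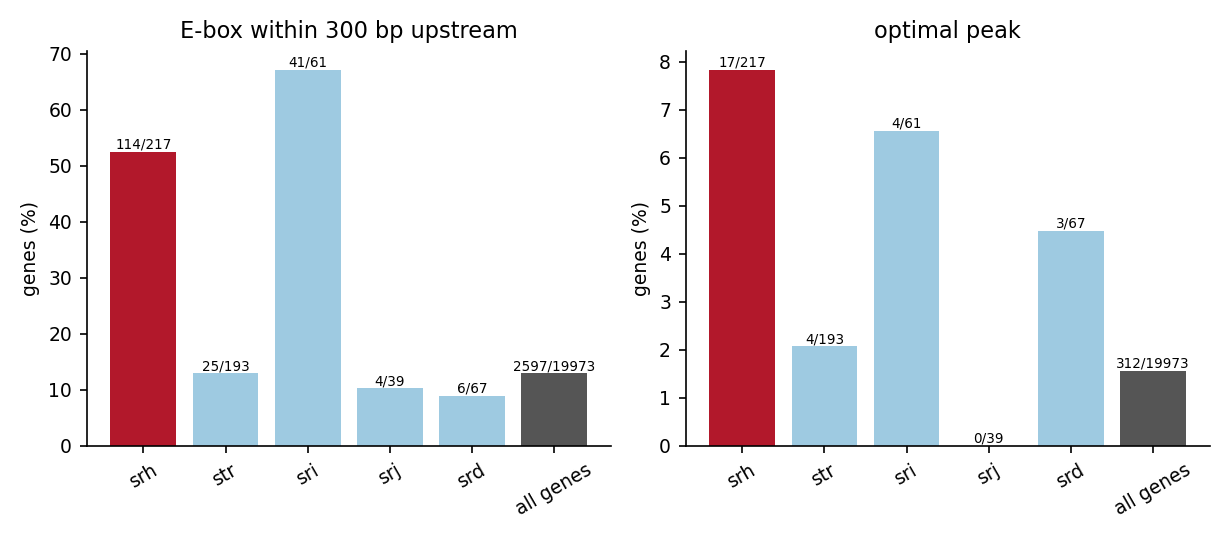
Share of genes in each Str superfamily family, and of all protein-coding genes, with an E-box within 300 bp upstream of the start (left, %) and with an optimal peak (right, %), with counts above the bars. srh and sri stand above the other families on the left, at 52.5% and 67.2%, and on the right, at 7.83% and 6.56%.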

How the data were processed

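Peak lists from 2 replicate ChIP-seq libraries, their pooled list and the optimal peaks on ce11 were used. In the deposited lists the authors give each region a signal value, of unstated normalization, and an offset from the region start that gives the summit. The text deposited with the lists says that the regions came from alignments of each library, or of both pooled, together with a control. The control and the ce10 lists were not used here. No source names the aligner or the caller, and none gives read counts.

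Each summit went to the closest protein-coding start (Ensembl release 115) that had it within 2000 bp upstream or 500 bp downstream. Replicate ranks are those of the strongest region overlapping by at least 1 bp. E-boxes were counted on both strands, within 50 bp of a summit or by their centre within 300 bp upstream. Lower-ranked regions exclude those overlapping an optimal peak. Protein identity came from global alignment (BLOSUM62, gap open 11, extend 1) of translated coding sequences. Gaps at the ends cost less, and matches were divided by the length of the shorter protein. Python 3.11.15, pandas 2.3.3, NumPy 2.4.6, Biopython 1.88 and Matplotlib 3.10.9 were used, and the assignment was tested on simulated data.

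The members, lists and settings were chosen with earlier results of these data known. Named genes are all bound members, the 10 strongest unbound ones, unbound neighbours in clusters with a bound member, and hlh-4. srh-146, srh-308, srh-119, members of clusters with no bound gene and genes of other families were named after their values were seen. Flanking bases, the longer string, protein identity, 36-base words and single-family E-box counts were chosen once values had been seen. The spans of 50 to 200 bp for summits and 25 to 125 bp for E-boxes were not planned either. The alternatives covered peak strictness, each replicate alone, windows, gene assignment and cluster distance.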

Additional observations from a re-analysis of the deposited data

How the results depend on the processing

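Binding of srh genes kept its scale in most settings. Members with an optimal peak numbered 17 and fell to 10 with only the 272 strongest peaks, where the median signal of srh peaks was 99.2 by construction. They ran from 15 to 19 over the other settings. With the strongest regions of 1 replicate alone, the count was 15 to 17. Of these members, 16 in replicate 1 and 14 in replicate 2 were also bound in the main set, with srh-120 added in the one and srh-5 in the other. The E-box share ran from 66.7% in replicate 1 to 93.75% in replicate 2, against 42.6% and 43.9% of all such regions, and was 61.1% within 25 bp and 94.4% within 100 bp. Counting every gene in reach gave a median signal of 66.0. The window of 1000 bp upstream to 200 bp downstream gave a median distance of -126 bp in place of -144.5 bp. The E-box difference between bound and unbound members was 17 percentage points in the full window, 32.4 within 300 bp, 29 in the narrower window and 16.8 to 17 with 1 replicate left out. Members with any region numbered 103 to 154, and clusters with a bound member 7 to 10. No paired analysis was possible because both replicates form 1 group. Depth is unknown, so how much it limits weak regions was not tested.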

Other observations

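The tagged gene itself, hlh-4, had an optimal peak at its start, with a signal value of 54.7 (rank 370) and a summit 6 bp downstream. Its signal value was lower than that of the strongest peak at 13 of the srh members. The strain also carries the transgene that makes tagged HLH-4, and whether the transgene adds reads at this start was not tested. The peak is therefore not read as binding of HLH-4 at its own gene. The order against srh members is one of signal values only.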
